A study of Homo sapiens with 12 samples.

Results

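MSTO-211H is an established human cell line from a biphasic mesothelioma, and the 3 libraries described here give its transcriptome without drug or radiation. They are the Con libraries, chosen by their titles, and are 3 of the 12 libraries of the series. The other libraries came from cells given 10 µM of a compound labelled QTP, 4 Gy of radiation or both, and none of them was used. Con cells received vehicle, were sham irradiated the next day and were lysed for RNA 48 h after the sham exposure. All cells of the series grew in suspension, in RPMI with the SM1 supplement, epidermal growth factor (EGF), basic fibroblast growth factor (FGF2) and heparin, and the submitters call them mesothelioma-initiating. Every level below belongs to this medium, and adherent cultures or cultures with serum were not analysed here. Of the 58735 genes in the table, 19951 are protein-coding, and these are the members described. The values are FPKM, reads divided by gene length and by the authors' scaling of the library, which allows a ranking of genes by level. The lengths are those deposited with the values, such as 16525 bases for SMARCB1 and 14617 for MTAP. Where the transcripts made in the cells are shorter, FPKM is too low, so ranks and presence calls are approximate. Means are given ± SD over n = 3 libraries, and no test was made, because no condition is compared.

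Mesothelial cells line the body cavities. They are of mesodermal origin and carry simple keratins together with vimentin, and mesothelioma can keep an epithelioid form, take a sarcomatoid one or, as in biphasic tumours, mix both. Mesothelin (MSLN), calretinin (CALB2), WT1 and podoplanin (PDPN) are used to recognise the lineage, and losses of CDKN2A, BAP1 and NF2 recur in the disease. In bulk RNA, fewer cells of a type and less RNA per cell cannot be told apart.

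Whole reads recovered from the FPKM summed to 16269195, 16192930 and 13188257 for Con 1, Con 2 and Con 3, so that a gene of 1 kb at 1 FPKM rested on 16.7, 16.7 and 13.3 reads. No pair of libraries was a repeat of another, since chi-square per degree of freedom of their reads was 7.72 to 16.9. Con 2 and Con 3 were the closest pair, with 14 genes at least 1 log2 unit apart, against 40 for Con 1 with Con 2 and 76 for Con 1 with Con 3. Mitochondrially encoded genes took 6.74%, 7.41% and 9.22% of reads in Con 1, Con 2 and Con 3. Whether the libraries came from separate cultures is not stated in the labels, and the spread given here may be technical in part.

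Of the protein-coding genes 10739 (53.8%) reached a mean of at least 1 FPKM, the level used here for presence. Another 3891 genes (19.5%) had 0 reads in all 3 libraries, and 2832 were above 0 but under 0.1 FPKM. Between these lay 2489 genes from 0.1 to under 1 FPKM. At the top, 241 genes lay from 100 to under 1000 FPKM and 23 at 1000 FPKM or more. Those 23 genes held 31.5% of all protein-coding FPKM.

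Mitochondrial, ribosomal and cytoskeletal transcripts led the profile. The 13 mitochondrially encoded proteins, all subunits of the respiratory chain or of ATP synthase, ranged from 130.3 to 10763 FPKM and held 21.8%, 24.0% and 28.8% of protein-coding FPKM in Con 1, Con 2 and Con 3. MT-ATP8 alone gave the low end. It is 207 bases long and overlaps MT-ATP6, so some of its reads may stand under that name. The next lowest, MT-ND5, averaged 2149 FPKM. Among nuclear genes EEF1A1, the factor that brings aminoacyl-tRNA to the ribosome, was highest, with 3289, 3379.7 and 3432 in the 3 libraries and a mean of 3367 ± 72.5. FTL, the light chain of the iron store ferritin, averaged 1852 ± 135 FPKM. TMSB10, an actin-binding thymosin, averaged 1678 ± 228 FPKM. Genes for cytosolic ribosomal proteins, counted by symbol, filled 12 of the 20 highest nuclear places, 26 of 50 and 44 of 100, and the 87 of them held 10.4% of protein-coding FPKM. Many of these genes have processed pseudogene copies, and how reads were shared among copies is not given in the sources used here, so their values are uncertain to that extent. The others among the 20 were EEF2, GAPDH, ACTG1, HSP90AB1 and S100A6. GAPDH, the glycolytic enzyme, had 1242, 970.1 and 796 FPKM in Con 1, Con 2 and Con 3, a wider spread than its neighbours in rank.

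**Figure D1:**
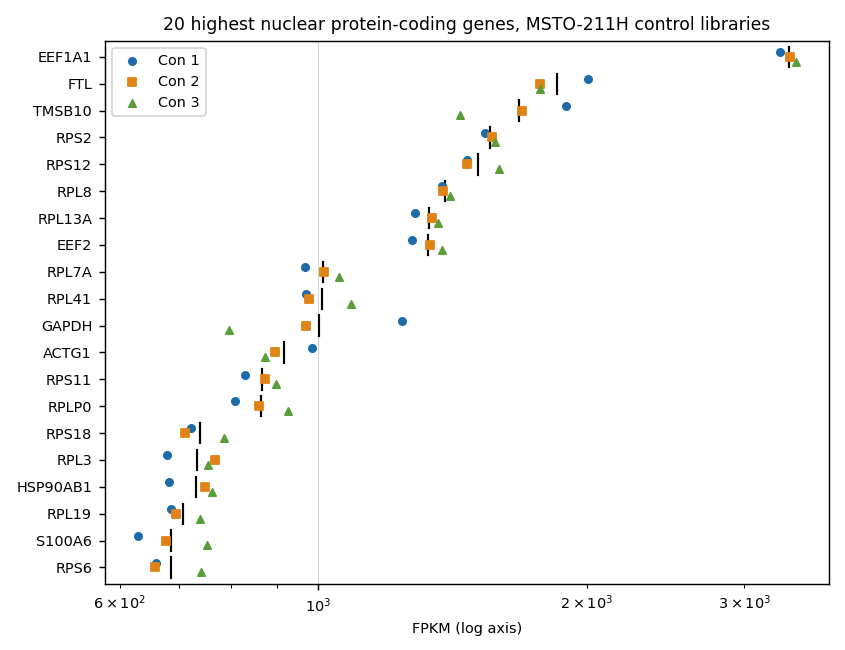
FPKM (log axis) of the 20 nuclear protein-coding genes with the highest mean, 1 per line, in Con 1, Con 2 and Con 3 (points) with the mean of the 3 (bar). EEF1A1 stands alone at the top, with a mean of 3367, and GAPDH spreads most widely around its mean of 1002.

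Secreted and structural genes stood high outside the ribosome and mitochondria. This group was picked from the top of the ranking after the values were seen. The actin ACTB averaged 679.9 ± 26.7 FPKM. Genes of extracellular proteolysis were among them: TIMP1, an inhibitor of metalloproteinases, averaged 308 ± 82.1 FPKM, and PLAT, the tissue plasminogen activator, 230.1 ± 71.0 FPKM. IGFBP6, which binds insulin-like growth factors, averaged 322 ± 17.5 FPKM. MDK, the heparin-binding cytokine midkine, averaged 260.0 ± 18.7 FPKM, and the Wnt antagonist DKK1 184 ± 14.9 FPKM. The table assigns 1548 protein-coding genes to a transcription factor family. Of them 889 were present, a share near the 53.8% over all protein-coding genes, and 7 reached 100 FPKM. Among these were HMGA1 (634 FPKM), an architectural chromatin protein, YBX1 (430.2), MYC (262), ATF4 (138), CNBP (128) and FOSL1 (107). MYC drives growth and ribosome production, ATF4 the response to amino acid and endoplasmic reticulum stress, and FOSL1 is an AP-1 subunit.

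The label of the cells was held against mesothelial markers first, and part of the panel was present. MSLN, a surface glycoprotein anchored by GPI, had 29.2, 43.4 and 42.1 FPKM in Con 1, Con 2 and Con 3, a mean of 38.2 ± 7.85. CALB2, a calcium-binding protein, had 19.8, 33.9 and 22.0 FPKM and averaged 25.3 ± 7.58. Both were lowest in Con 1, and CALB2 was highest in Con 2 by a clear margin. BNC1, a zinc finger factor of mesothelium, averaged 13.7 ± 1.77 FPKM, and the tight junction gene CLDN15 10.2 ± 0.485 FPKM. The transcription factors GATA4 (6.22 ± 0.368), GATA6 (4.87 ± 1.29) and TBX18 (4.07 ± 0.228 FPKM) were present at lower levels.

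Other defining markers were under the presence level or at 0. WT1, the transcription factor used in diagnosis, had 1.12, 0.785 and 0.458 FPKM from 77, 54 and 25 reads, under the presence level on average. UPK3B had 0.135, 0.135 and 0.142 FPKM and LRRN4 0.311, 0.622 and 0.476 FPKM. PDPN, MUC16 (the CA125 antigen), ITLN1, UPK1B and TCF21 had 0 reads in all 3 libraries. With 3 reads as the limit a count of 0 allows, this bounds PDPN at 0.0610 FPKM and MUC16 at 0.00516 FPKM in any library. In all, 9 of 20 mesothelial markers were present, 6 were under 0.1 FPKM and 5 of those were at 0. Over all protein-coding genes 53.8% were present and 19.5% at 0, so the count alone does not set the panel apart. The panel thus holds MSLN and CALB2 well above the presence level beside a WT1 below 1 and no PDPN reads.

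Keratin expression was narrow. KRT8 and KRT18, the simple keratins that pair into 1 filament, had 448, 588 and 552 FPKM and 525, 630.1 and 599 FPKM in Con 1, Con 2 and Con 3. Both sat among the 30 highest nuclear genes, at ranks 27 and 24, and both were lowest in Con 1. The 2 genes overlap by 1084 bases on opposite strands, and whether counting used strand is not given in the sources used here, so reads in the overlap may stand under either name. KRT7, the usual simple partner keratin of mesothelium, had only 0.380, 0.409 and 0.405 FPKM. KRT19 had 0, 3 and 3 reads and KRT20 had 0. The basal keratin KRT5, also used to recognise mesothelioma, had 0.334, 1.77 and 1.35 FPKM, so that it passed 1 FPKM in Con 2 and Con 3 but not in Con 1. Of 55 keratin genes by symbol, 7 were present and 32 were at 0, beside 53.8% and 19.5% of all protein-coding genes. KRT80 (32.5 FPKM) and KRT10 (14.2 FPKM) followed KRT18 and KRT8.

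Most genes of the mesenchymal list were present and no gene of the epithelial list was. Of 20 listed mesenchymal genes 16 were present, while 0 of 16 listed epithelial genes reached 1 FPKM. Over all protein-coding genes 53.8% were present. The epithelial list leaves out KRT8 and KRT18, at means of 529.5 and 584.9 FPKM, which were counted with the simple keratins. VIM, vimentin, had 249, 205 and 198 FPKM and averaged 217 ± 27.9. SPARC, a matrix glycoprotein, averaged 165 ± 8.55 FPKM, and CDH2, N-cadherin, 15.2 ± 0.351 FPKM. CDH1, E-cadherin, had 0, 2 and 0 reads in Con 1, Con 2 and Con 3, and EPCAM 1, 0 and 0 reads. Both epithelial genes were therefore at or near 0 in every library. SPINT1, a protease inhibitor, was the highest of the epithelial list at 0.605 ± 0.0602 FPKM. Of the factors that repress CDH1, TWIST2 averaged 18.5 ± 2.31 FPKM, TWIST1 13.2 ± 1.01 FPKM, SNAI2 6.92 ± 0.899 FPKM and ZEB1 4.23 ± 0.129 FPKM, while SNAI1 stayed at 0.329 ± 0.0896 FPKM. Fibrillar collagens were uneven. COL3A1 averaged 9.14 ± 0.490 FPKM and COL1A1 2.35 ± 0.628 FPKM, but COL1A2, which supplies the second chain of type I collagen, had 0, 1 and 0 reads. PRRX1 and CDH11, genes of mesenchymal progenitors, were likewise under 0.1 FPKM. CD44, the hyaluronan receptor often used to mark tumour-initiating cells, had 48.5, 39.6 and 37.1 FPKM and averaged 41.7 ± 6.01.

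**Figure D2:**
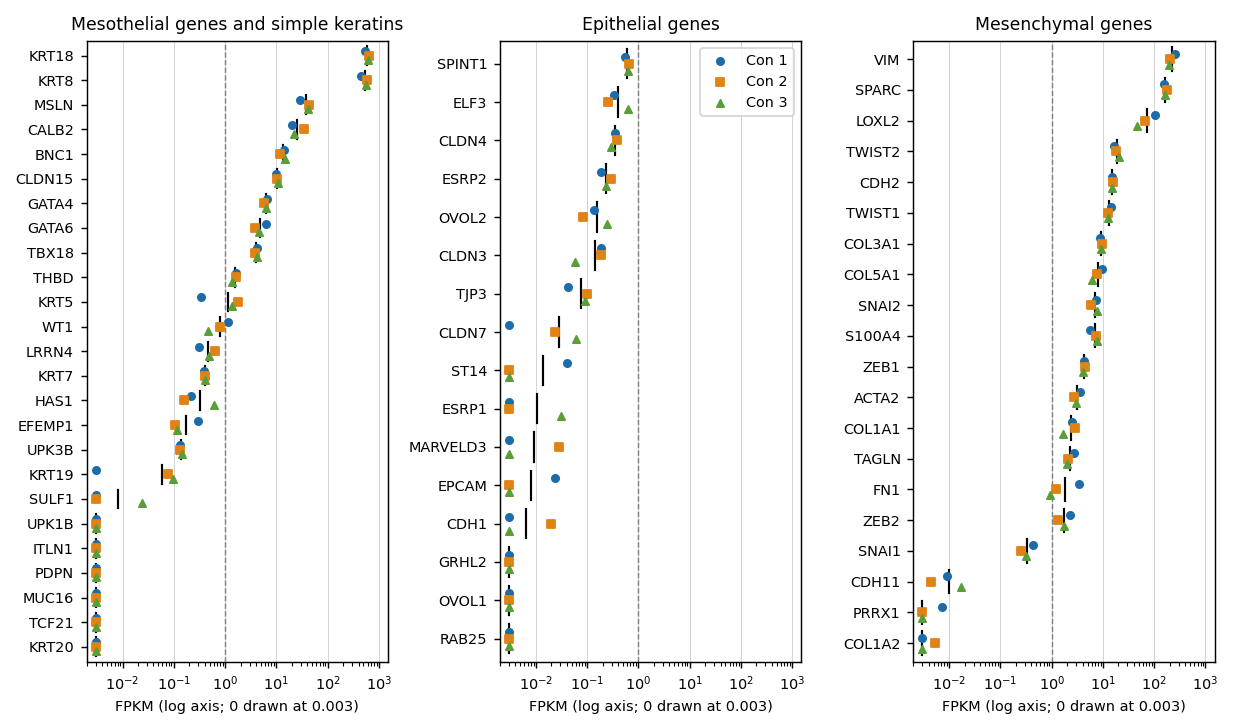
FPKM (log axis, 0 drawn at 0.003) of the mesothelial genes and simple keratins, the epithelial genes and the mesenchymal genes, 1 per line, in Con 1, Con 2 and Con 3 (points) with the mean (bar) and the presence level of 1 FPKM (dashed). Every gene of the epithelial list lies left of the dashed line, while 16 of 20 listed mesenchymal genes lie right of it.

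HOX genes, which give cells their position along the body axis, had most of their summed level in the HOXB cluster. Of 39 HOX genes 22 were present, a share near the 53.8% over all protein-coding genes. The HOXB cluster on chromosome 17 had 9 of 10 present and a summed level of 139, 142 and 149 FPKM in Con 1, Con 2 and Con 3. HOXC summed to 44.1, 45.1 and 46.7 FPKM, with 5 of 9 present. HOXD had 2 of 9 and HOXA 6 of 11 present, with mean sums of 16.5 and 16.3 FPKM. HOXB4 averaged 26.5 ± 2.34 FPKM, HOXB9 26.5 ± 2.65 FPKM and HOXC8 20.5 ± 1.25 FPKM. The annotated spans of HOXB4 and HOXB3 overlap, as do those of HOXB9 and HOXB7, and reads in them can be shared. HOXB1, HOXC12 and HOXD12 had 0 reads.

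Receptor tyrosine kinases carry growth factor signals across the membrane, and 3 of them held about as much of the total as all the others. Of 58 receptors 23 were present, beside 53.8% of all protein-coding genes. Another 27 were under 0.1 FPKM, among them EPHA3, EPHA6, FGFR2 and FLT3 with 0 reads. MET, the receptor of hepatocyte growth factor, had 62.5, 54.1 and 56.1 FPKM in Con 1, Con 2 and Con 3, a mean of 57.5 ± 4.40. AXL, the receptor of GAS6, had 53.4, 54.2 and 52.3 FPKM, a mean of 53.3 ± 0.958. EGFR, the receptor of the EGF in the medium, had 45.5, 43.1 and 54.4 FPKM, a mean of 47.7 ± 5.98. These 3 receptors overlapped in their library values, and together they held 50.6% of the FPKM of the list. Within each library MET stood above EGFR, while AXL changed places with MET in Con 2 and with EGFR in Con 3. EPHA2 (29.6 ± 0.881) and EPHB4 (27.9 ± 1.95 FPKM), receptors of membrane-bound ephrins, came next and lay wholly below EGFR. Their ranges overlapped, but EPHA2 stood above EPHB4 within each library. PTK7, a Wnt co-receptor, averaged 13.6 ± 1.17 FPKM, below EPHB4 in every library, and the collagen receptor DDR2 12.8 ± 1.88 FPKM. At 5 to 10 FPKM lay EPHB6 (9.59 ± 1.42), RYK (9.43 ± 0.444), ERBB2 (9.35 ± 0.439), LMTK2 (5.54 ± 0.455) and DDR1 (5.46 ± 0.0538). FGFR1, the highest of the FGF receptors in a medium with FGF2, averaged 4.73 ± 0.993 FPKM. FGFR4 was present at 1.19 ± 0.202 FPKM. Of the 22 pairs of neighbours in the order of the 23 receptors, 17 overlapped in their ranges over the libraries. The pairs that did not were EGFR with EPHA2, EPHB4 with PTK7, ERBB2 with LMTK2, IGF1R with EPHB2 and PDGFRB with FGFR4. EPHA2 with EPHB4, DDR2 with EPHB6, ROR1 with IGF1R and EPHB2 with EPHA4 overlapped but kept their order in all 3 libraries. By family, 5 of 14 Eph receptors, 2 of 4 ErbB receptors and 2 of 4 FGF receptors were present, against 0 of 3 VEGF receptors and 0 of 3 neurotrophin receptors.

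**Figure D3:**
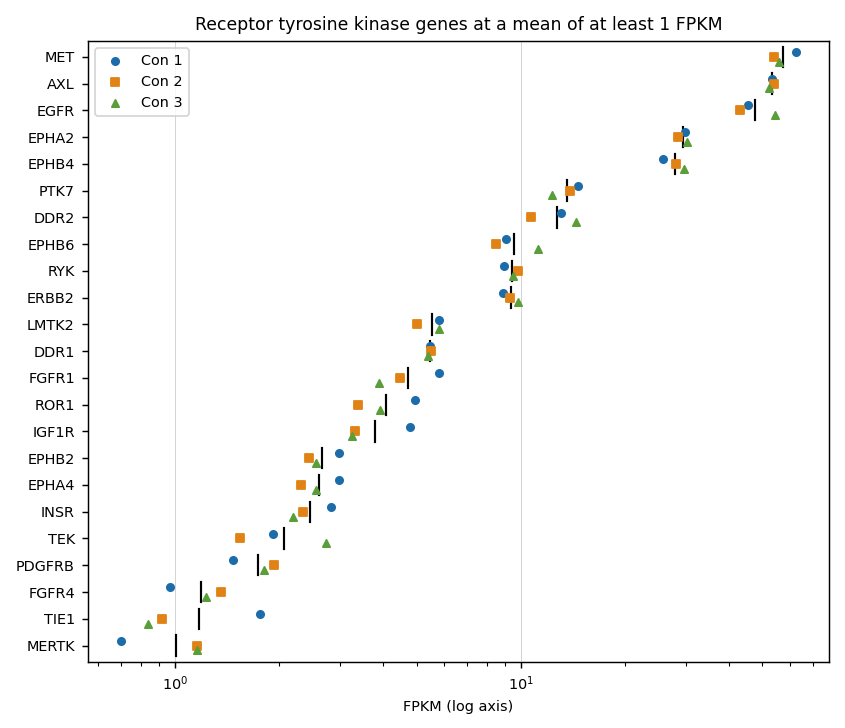
FPKM (log axis) of the 23 receptor tyrosine kinases at a mean of at least 1 FPKM, 1 per line, in Con 1, Con 2 and Con 3 (points) with the mean (bar). MET, AXL and EGFR form the top group, from 43.1 to 62.5 FPKM, with a gap below them to EPHA2.

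Transcripts of some ligands of these receptors were present. The list had 18 of 42 genes present, a lower share than the 53.8% over all protein-coding genes. FGF2, also a part of the medium, had 36.7, 33.8 and 43.2 FPKM and was the highest. GAS6 (28.5 ± 5.44 FPKM) and PROS1 (10.9 ± 2.33 FPKM), both ligands of the AXL family, were present. VEGFB averaged 27.4 ± 4.81 FPKM, VEGFC 13.5 ± 2.35 FPKM and VEGFA 11.6 ± 4.47 FPKM, in cells with no VEGF receptor at 1 FPKM. PDGFC averaged 13.5 ± 1.67 FPKM and PDGFB 11.8 ± 0.972 FPKM. Of their receptors, PDGFRB averaged 1.74 ± 0.238 FPKM and PDGFRA, which binds PDGFC, had 1, 0 and 0 reads. EGF had 3, 2 and 4 reads in Con 1, Con 2 and Con 3, and HGF, the ligand of MET, had 36, 3 and 6 reads. HGF was thus highest in Con 1 and under 0.1 FPKM on average. EREG, FGF9, IGF1 and NRG3 had 0 reads. Heparan sulfate chains hold FGF2 at its receptor, and 9 of 15 genes for their core proteins and enzymes were present. SDC4 had 103, 59.1 and 65.8 FPKM, highest in Con 1, GPC1 averaged 53.2 ± 4.73 FPKM and SDC1 49.5 ± 7.66 FPKM, while SDC2, GPC3, GPC4 and GPC5 had 0 reads.

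Receptors of other pathways followed. Of 27 receptors for TGF-beta, BMP, Wnt, Hedgehog and Notch ligands, 21 were present and 0 were at 0. Over all protein-coding genes these shares were 53.8% and 19.5%. NOTCH2 averaged 29.7 ± 5.72 FPKM, TGFBR2 29.1 ± 4.06 FPKM, the Wnt co-receptor LRP5 20.7 ± 0.648 FPKM, NOTCH1 18.8 ± 0.726 FPKM and the Hedgehog transducer SMO 13.5 ± 0.728 FPKM. Of 20 cytokine receptors 15 were present, beside the same 53.8%. TNFRSF12A, the receptor of TWEAK, had 94.9, 96.9 and 96.8 FPKM, a narrow range. IL6ST, the shared signalling chain gp130, averaged 31.7 ± 5.05 FPKM and OSMR, which pairs with it for oncostatin M, 25.9 ± 6.94 FPKM, while IL6R, the receptor chain specific for interleukin 6, stayed at 0.327 ± 0.0859 FPKM. GHR, the growth hormone receptor, had 0 reads. Of 26 integrins, the receptors for matrix, 16 were present, and this share, like that of the heparan sulfate genes, lay near the 53.8% over all genes. ITGB1, the common beta chain, averaged 111 ± 15.9 FPKM, its laminin-binding partners ITGA3 65.2 ± 2.69 FPKM and ITGA6 27.0 ± 1.08 FPKM, and ITGB4, the other partner of ITGA6, 26.2 ± 6.78 FPKM. ITGA8 had 0 reads.

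Tumour suppressor genes were present with few exceptions. Of 27 genes on the list, 24 reached 1 FPKM, beside 53.8% of all protein-coding genes. BAP1, a nuclear deubiquitinase, had 17.0, 17.1 and 17.7 FPKM in Con 1, Con 2 and Con 3, a mean of 17.3 ± 0.377. NF2, which encodes merlin, had 8.23, 11.2 and 9.58 FPKM. Both were present in every library, BAP1 within a narrow range. A transcript level says nothing of mutations in it. Hippo pathway members below merlin spread widely: the scaffold SAV1 averaged 21.2 ± 2.36 FPKM, the kinases STK4 14.7 ± 2.18 and LATS2 7.71 ± 0.155 FPKM, but LATS1 1.80 ± 0.191 and STK3 only 1.01 ± 0.126 FPKM. Other chromatin genes of the list lay between 3.84 FPKM (SETDB1) and 6.94 FPKM (SETD2), with PBRM1, SMARCB1 and ARID1A between them. CUL1, a ubiquitin ligase scaffold, was the highest of the list at 30.6 ± 2.46 FPKM, and the helicase DDX3X averaged 18.1 ± 0.572 FPKM. RB1 averaged 7.79 ± 0.309 FPKM, STK11 9.26 ± 0.284 FPKM and RASSF1 4.06 ± 0.685 FPKM. TSC2 (7.48 ± 0.691) stood above its partner TSC1 (3.02 ± 0.185 FPKM) in each library, FBXW7 averaged 2.09 ± 0.0495 FPKM and PTCH1 1.03 ± 0.355 FPKM. PTCH1 passed 1 FPKM in Con 1 alone (1.44, 0.832 and 0.813 FPKM in the 3 libraries) and averaged 0.823 FPKM without it, while STK3 averaged 0.942 FPKM without Con 3, so the count of 24 rests on 1 library for each of these. TP73 had 13, 0 and 1 reads and was, with CDKN2A and CDKN2B, 1 of the 3 genes under 1 FPKM.

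The exceptions on chromosome 9 lay side by side. CDKN2A (chromosome 9, 21967753 to 21995301, hg38, minus strand) encodes the CDK inhibitor p16 and the protein ARF, and had 15, 3 and 3 reads in Con 1, Con 2 and Con 3, or 0.207, 0.0414 and 0.0522 FPKM. CDKN2B (22002903 to 22009363, minus strand), which encodes p15, had 0 reads, a limit of 0.0557 FPKM in any library. MTAP (21802543 to 21937651, plus strand), a methionine salvage enzyme, ends 30.1 kb before CDKN2A, and had 788, 797 and 572 reads, or 3.22, 3.26 and 2.95 FPKM. In gene order the drop in reads came between MTAP and CDKN2A, but totals per gene cannot place it along the chromosome. On the other side of the pair, 437 kb from the end of CDKN2B, DMRTA1 had 0 reads. The long noncoding CDKN2B-AS1, which overlaps both inhibitors on the other strand, had 35, 46 and 38 reads (0.32 FPKM), so the few reads under CDKN2A cannot be assigned to a strand. The readthrough gene AL359922.1, which spans MTAP, CDKN2A and CDKN2B, was at 0. Before MTAP, KLHL9 averaged 17.7 ± 1.91 FPKM. Of the 16 type I interferon genes between FOCAD and MTAP 14 had 0 reads, while IFNE had 14, 20 and 9. Over all protein-coding genes 19.5% were at 0, and of the whole type I interferon family 15 of 17 genes were. DNA copy number and methylation were not measured. The promoters of these neighbours, of the receptors with the highest means, MET and AXL, and of FGFR2, 1 of the 4 receptors at 0, are printed to show the sequence that stands beside genes at opposite levels. Each is the 250 bases before a RefSeq transcript start (GRCh38.p14), 5′ to 3′ on the gene's strand, with CG dinucleotides, the sites of DNA methylation, in capitals. For CDKN2A this start lies 23 bases from the outer end of the gene, so the window need not be that of the p16 transcript.
MTAP: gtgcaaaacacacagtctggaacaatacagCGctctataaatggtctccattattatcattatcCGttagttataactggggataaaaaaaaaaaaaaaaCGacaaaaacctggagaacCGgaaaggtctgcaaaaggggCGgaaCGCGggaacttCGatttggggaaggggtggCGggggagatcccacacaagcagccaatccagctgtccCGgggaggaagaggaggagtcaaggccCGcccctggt
CDKN2A: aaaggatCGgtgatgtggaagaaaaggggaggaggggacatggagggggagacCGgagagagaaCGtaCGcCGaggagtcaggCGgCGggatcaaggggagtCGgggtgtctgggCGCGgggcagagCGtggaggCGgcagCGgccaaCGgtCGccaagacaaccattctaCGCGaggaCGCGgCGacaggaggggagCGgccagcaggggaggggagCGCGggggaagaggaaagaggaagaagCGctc
CDKN2B: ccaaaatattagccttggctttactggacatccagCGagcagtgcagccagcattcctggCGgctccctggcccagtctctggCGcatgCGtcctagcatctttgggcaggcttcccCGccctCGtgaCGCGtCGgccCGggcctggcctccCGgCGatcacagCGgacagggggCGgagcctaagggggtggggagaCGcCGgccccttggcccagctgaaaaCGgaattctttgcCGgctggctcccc
MET: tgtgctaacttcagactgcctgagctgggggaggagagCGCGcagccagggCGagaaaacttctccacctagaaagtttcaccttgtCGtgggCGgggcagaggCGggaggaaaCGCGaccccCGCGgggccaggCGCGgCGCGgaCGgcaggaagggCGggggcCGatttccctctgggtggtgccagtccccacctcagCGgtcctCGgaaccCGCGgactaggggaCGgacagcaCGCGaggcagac
AXL: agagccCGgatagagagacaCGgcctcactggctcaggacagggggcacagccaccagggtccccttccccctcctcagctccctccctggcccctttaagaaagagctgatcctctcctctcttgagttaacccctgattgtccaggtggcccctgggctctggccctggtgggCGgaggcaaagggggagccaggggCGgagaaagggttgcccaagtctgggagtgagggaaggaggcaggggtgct
FGFR2: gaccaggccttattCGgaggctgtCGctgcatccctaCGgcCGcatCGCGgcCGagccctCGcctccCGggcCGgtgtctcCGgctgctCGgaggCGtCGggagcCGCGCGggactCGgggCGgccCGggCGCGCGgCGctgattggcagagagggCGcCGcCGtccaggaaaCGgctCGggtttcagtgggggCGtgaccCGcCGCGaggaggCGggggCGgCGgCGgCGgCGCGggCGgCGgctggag
These windows are chr9:21802386-21802635 (plus strand) for MTAP, chr9:21995325-21995574 (minus strand) for CDKN2A, chr9:22009306-22009555 (minus strand) for CDKN2B, chr7:116671946-116672195 (plus strand) for MET, chr19:41218973-41219222 (plus strand) for AXL and chr10:121598445-121598694 (minus strand) for FGFR2. They hold 11, 24, 18, 24, 4 and 42 CG in that order, against a median of 11 and quartiles of 3 and 23 over 35116 promoters, of which 93.9% hold at least 1. AXL, highly present, had the fewest CG of these and FGFR2, at 0 reads, the most, but the other receptors at 0 had 15 (EPHA3), 26 (EPHA6) and 26 (FLT3). Over the receptor tyrosine kinases matched to a promoter (51 of 58), the median CG count was 23.5 for the 22 present and 19 for the 29 under 1 FPKM. Some of these windows lie far from the annotated gene start, such as 197459 bases for EPHB1, 7695 for EPHB6 and 4549 for DDR1. The medians therefore mix such windows with those at the gene start.

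**Figure D4:**
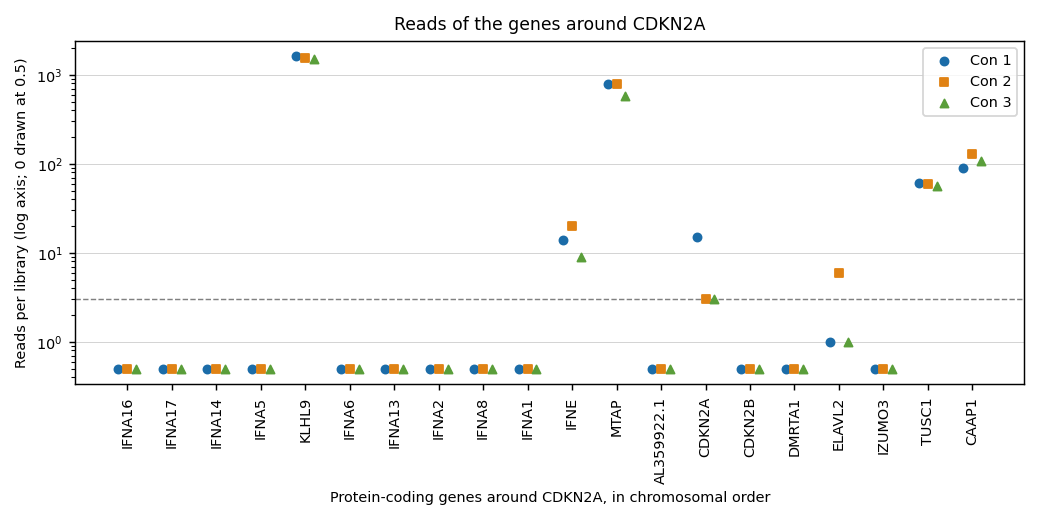
Reads per library (log axis, 0 drawn at 0.5) of the protein-coding genes around CDKN2A in chromosomal order, in Con 1, Con 2 and Con 3, with the limit of 3 reads (dashed). MTAP stands at 572 to 797 reads, while CDKN2A has at most 15 and CDKN2B and DMRTA1 have 0.

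Cell cycle genes that act with or against p16 were present. Of 19 genes 18 reached 1 FPKM, beside 53.8% of all protein-coding genes, and CCNE2 did not. CCND1, cyclin D1, had 84.2, 76.1 and 86.5 FPKM, and its kinases CDK4 and CDK6, the targets of p16, averaged 38.1 ± 1.29 and 16.05 ± 1.67 FPKM. CDKN1A, the inhibitor p21, was the highest of the list at 135, 151 and 157 FPKM. CDKN1B, p27, averaged 12.4 ± 1.77 FPKM. MKI67, an antigen of proliferating cells, averaged 11.9 ± 1.64 FPKM. TERT, the catalytic subunit of telomerase, had 0.844, 1.46 and 1.23 FPKM. Of 22 genes tied to treatments under study in mesothelioma 20 were present, again beside 53.8% of all genes. MAT2A averaged 79.6 ± 5.23 FPKM and PRMT5 31.7 ± 0.784 FPKM, both of which are drug targets in cells that lack MTAP. FPGS (26.5 ± 1.04), GART (22.9 ± 0.618) and TYMS (12.8 ± 1.87 FPKM), through which the antifolate pemetrexed is retained or acts, were all present. Of the folate carriers, SLC19A1 averaged 3.36 ± 0.188 FPKM and SLC46A1 0.883 ± 0.0775 FPKM, and the folate receptor FOLR1 had 0 reads. Immune checkpoint ligands ranged from CD47 at 16.5 ± 2.14 FPKM and CD276 at 9.99 ± 1.28 FPKM to CD274, PD-L1, at 1.43 ± 0.262 FPKM. VSIR, the checkpoint VISTA, averaged 6.42 ± 1.37 FPKM. ASS1, which makes argininosuccinate and is lost in arginine-dependent tumours, had 3.19, 5.39 and 5.31 FPKM.

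The immune, muscle, erythroid and pluripotency lists had no gene at the presence level, and other lists had from 1 to 5 of 10, beside 53.8% of all protein-coding genes. The immune list had 0 of 15 genes present and summed to between 0.447 and 0.569 FPKM per library, with CD3D, CD3E, CD2, LYZ and FCGR3A among its 6 genes at 0. Muscle, erythroid and pluripotency lists had 0 of 10 each, and NANOG, LIN28B, DPPA4 and TDGF1 had 0 reads. Of the endothelial list 3 of 10 were present, namely TEK (2.06 ± 0.607), ROBO4 (1.77 ± 0.412) and TIE1 (1.17 ± 0.511 FPKM), while the endothelial cadherin CDH5 and EMCN were at 0. The list summed to 4.93 to 6.62 FPKM per library. The fibroblast list had 5 of 10, led by FBLN1 (5.64 ± 1.07), THY1 (5.56 ± 0.578) and LUM (3.96 ± 0.909 FPKM), with DCN at 0.0198 ± 0.00301 FPKM and MFAP5 at 0, and summed to 18.6 to 20.1 FPKM. Its share of present genes was close to that over all genes. Of the lung, liver, neuroendocrine and germline lists 1 of 10 each was present. These single genes were AGER (2.52 ± 0.350), SERPINA1 (8.46 ± 1.29), DLL3 (1.55 ± 0.396) and ZP3 (2.27 ± 0.174 FPKM). The defining genes SFTPC and SCGB1A1 of lung, ALB and TTR of liver, NEUROD1 and INSM1 of neuroendocrine cells and DAZL and PRM1 of germ cells had 0 reads. The neuronal list had 3 of 10, led by SNAP25, a vesicle fusion protein, at 7.65, 10.5 and 10.7 FPKM, with ELAVL4 at 0 and a sum of 11.8 to 15.2 FPKM.

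Cancer-testis antigens, normally limited to germ cells, were mostly silent with 1 clear exception. Of 21 such genes 15 had 0 reads, among them MAGEA4, CTAG1B and SSX1, beside 19.5% of all protein-coding genes. MAGEB2 had 33.1, 39.3 and 36.0 FPKM from 891, 1057 and 769 reads and averaged 36.1 ± 3.09. PRAME was the only other one present, at 7.21 ± 1.04 FPKM. Its relatives of the PRAME family did not follow it, since 20 of 22 had 0 reads and the other 2 were under 0.1 FPKM.

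Most of the large tissue-specific families, grouped by symbol, were close to empty. Of 386 olfactory receptor genes 337 (87.3%) had 0 reads and 1, OR2W3, reached 1 FPKM. Keratin-associated proteins of hair were at 0 in 84 of 94 genes, beta-defensins in 38 of 39, UDP glucuronosyltransferases in 21 of 22 and late cornified envelope genes in 14 of 18. Taste receptors were an exception, with 14 of 27 at 0, and TAS2R5 and TAS2R4 were present. Over all protein-coding genes the share at 0 was 19.5%. Zinc finger genes named ZNF gave the opposite picture, with 38 of 514 at 0 and 341 present. Of 27 CCL chemokine genes 20 were at 0, while CCL5, which attracts T cells and monocytes, had 46.0, 9.06 and 36.6 FPKM.

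Spread between the 3 libraries depended on level. The coefficient of variation (CV, SD as a percent of the mean) had a median of 9.31% for genes from 1 to under 10 FPKM, where counting alone gives 5.33%. For genes from 100 to under 1000 FPKM the median was 5.70%, against 1.09% from counting. The 23 genes at 1000 FPKM or more, with mitochondrially encoded genes among them, went the other way, with a median CV of 16.1% against 0.452% from counting. Between 0.1 and 1 FPKM it was 29.2%, against 22.4% from counting, so most of the spread at these levels was of the size that counting gives. Among the 1927 genes at 20 FPKM or more the median CV was 6.04%. The narrowest were NDUFB10 and NDUFB4, subunits of respiratory complex I, the translation factor EIF4G2, the actin regulator WASF2 and the iron-sulfur assembly factor CIAO1. NDUFB10 had 66.1, 66.2 and 66.0 FPKM and EIF4G2 57.5, 57.4 and 57.3 FPKM.

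A small set of well-measured genes varied widely between the control libraries. Of the 1927 genes, 54 (2.80%) had a CV of 25% or more, and 44 of these were highest in Con 1. Highest in Con 1 and lowest in Con 3 were 30 of the 54 (55.6%), against 298 (15.5%) of the 1927. Without Con 1 the count of 54 was 28. NDRG1, a stress-responsive cytosolic protein induced by low oxygen, had 42.1, 13.6 and 4.34 FPKM in Con 1, Con 2 and Con 3, the widest CV. LOX, which crosslinks collagen, had 38.9, 12.9 and 10.7 FPKM, the enolase ENO2 47.3, 24.1 and 10.5 FPKM and ERO1A, an oxidase of protein folding, 34.8, 15.96 and 11.5 FPKM. The metallothionein MT2A averaged 102 ± 61.3 FPKM, with 172 FPKM in Con 1. Also among the 12 genes of widest CV were the collagen prolyl hydroxylase P4HA1, with 64.7, 40.3 and 25.5 FPKM, and the glycolytic kinase PGK1, with 230.3, 149 and 91.2 FPKM. MME, the peptidase CD10, had 84.0, 44.7 and 34.6 FPKM and TMEM158 194, 131 and 70.6 FPKM. All of these were highest in Con 1 and lowest in Con 3. The cystatin CST1 had 3.49, 29.1 and 28.9 FPKM and FGFBP1, which carries FGF2 out of the matrix, 9.10, 27.4 and 25.2 FPKM. These 2 genes ran the other way and were low in Con 1 alone. CCL5 followed neither course, with its low value in Con 2.

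Hypoxia and glycolysis genes, a list put together after these values were seen, ran in 1 direction. Of 30 genes 28 were present, all 28 were lowest in Con 3, and 26 of them were highest in Con 1. The exceptions were DDIT4 and PFKFB3, both highest in Con 2. Of the 1927 genes at 20 FPKM or more, 529 were lowest in Con 3, and 298 (15.5%) were also highest in Con 1. Among the 54 genes of wide CV with this order were NDRG1, LOX, ENO2, ERO1A, P4HA1, PGK1, LDHA, BNIP3, BNIP3L, BHLHE40, HK2 and TPI1. These entered the list with their order already seen, so its direction was fixed in part by the choice. The list also holds genes under 20 FPKM, such as CA9 (mean 10.9) and ADM (3.00), so the 1927 genes are not a matched background for it. CA9, the carbonic anhydrase that HIF-1 induces, had 19.0, 12.1 and 1.49 FPKM in Con 1, Con 2 and Con 3. LDHA, lactate dehydrogenase, had 209, 154 and 86.9 FPKM, and the glucose transporter SLC2A1 47.2, 38.6 and 29.97 FPKM. CA9 had the largest ratio of the list between these libraries, and SLC2A1 a much smaller one. The ratio of Con 1 to Con 3 had a median of 2.33 and ran from 1.06 to 12.8, and the median CV was 39.6%. Without Con 3 the median CV of the list was 23.1%. Con 3 was also the library with the fewest reads and the largest mitochondrial share, 9.22% against 6.74% in Con 1, and the part of either in the spread was not tested. VEGFA, LOX and GAPDH thus varied more between the libraries than MET, AXL and BAP1.

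**Figure D5:**
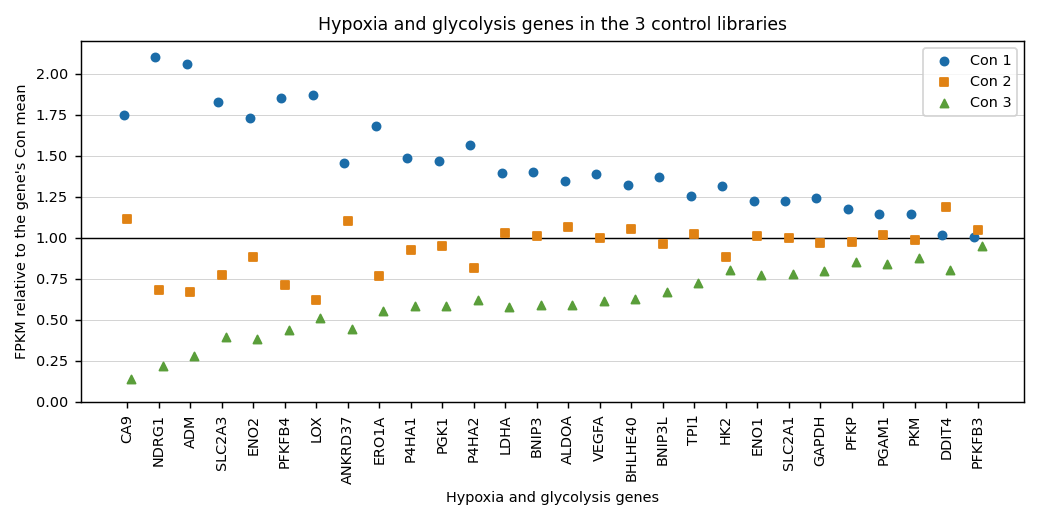
FPKM relative to the mean of the 3 control libraries (linear axis) for 28 hypoxia and glycolysis genes at a mean of at least 1 FPKM, in Con 1, Con 2 and Con 3. Con 3 is the lowest point for all 28 genes and Con 1 the highest for 26, with DDIT4 and PFKFB3 as the exceptions.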

How the data were processed

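RNA extraction used Trizol followed by RNeasy columns, and NEBNext Ultra libraries were sequenced on a NovaSeq6000, per the labels' protocols. The authors deposited 1 table of FPKM per gene with Ensembl identifiers, symbols, biotypes, gene lengths and coordinates. Its build is hg38 (per the submitters' processing notes). Aligner, read counter, strand setting and library scaling were not given in the sources used here. All 19951 protein-coding identifiers are in GENCODE release 29, 19948 of them with the same start and end. Multiplying FPKM by gene length and dividing by the library's step gave whole reads, within 0.01 of a read, for 100% of values above 0. A run on simulated FPKM used the same formula and could only return the simulated reads, so it is no check of the deposited values. Value columns without a sample numbered 0.

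Levels are mean FPKM ± SD over Con 1, Con 2 and Con 3, grouped by title. A gene was called present at a mean of at least 1 FPKM and near absent under 0.1 FPKM. A count of 0 was given a limit of 3 reads per library, which covers counting error only, as do the counting CVs (from the square root of the mean reads). No condition was compared, so no test was made. For the 15 protein-coding symbols with more than 1 identifier, a named gene is the first with its symbol. Copies with shared sequence and overlapping genes can share reads.

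The members and gene lists were chosen with earlier results of these data known. The naming rule took the 20 highest nuclear genes, the 5 markers, up to 8 of the highest members of each list with all members at 0 where these were 5 or fewer, receptor tyrosine kinases at 5 FPKM or more, all listed tumour suppressors, the 12 genes of widest and the 5 of narrowest CV at 20 FPKM or more, and the neighbours of CDKN2A. Other genes named, among them secreted genes, transcription factors, families by symbol, further list members, promoters and the hypoxia and glycolysis list, were chosen after their values were seen.

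Promoters came from RefSeq (GRCh38.p14), with the transcript start nearest to the start in the table. They matched 76.9% of protein-coding genes, under 80%, so a check of CG content over all of them is void and none is given. Alternatives were other presence thresholds, TPM computed from the deposited FPKM, scaling by the median of ratios, other pseudocounts and filters, and each library left out. Python 3.11.15, pandas 2.3.3, numpy 2.4.6 and matplotlib 3.10.9 were used.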

Additional observations from a re-analysis of the deposited data

How the results depend on the processing

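The number of present protein-coding genes (10739) stayed within 1.5 times under every alternative run, from 9412 at a threshold of 2 FPKM to 12134 with TPM. Receptor tyrosine kinases present (23) came to 26 at 0.5 FPKM, 19 at 2 FPKM and 28 with TPM, and lineage genes (27) to 29, 23 and 35. WT1 and SPINT1 pass at 0.5 FPKM. TPM divides each FPKM by the library's sum, so it raises all levels: the median tumour suppressor was 16.9 TPM against 4.96 FPKM, MSLN 129 TPM, CALB2 86.1 TPM, KRT8 1798 TPM, KRT18 1988 TPM and CD44 143 TPM. Without mitochondrially encoded genes the 100 highest genes held 25.6% of protein-coding FPKM in place of 43.2%. As SD of log2 values, the median spread was 0.0973 with a pseudocount of 1 and 0.113 with 0.1, another scale than the CV of 7.97%. Leaving out each library gave 10689 to 10748 present genes, 4165 to 4336 genes at 0, a share of 41.6% to 44.3%, 22 to 23 receptor tyrosine kinases, 26 to 27 lineage genes and a suppressor median of 4.99 to 5.09 FPKM. It also gave a median CV of 5.66% to 7.11%, MSLN 35.6 to 42.7, CALB2 20.9 to 28.0, KRT8 500.3 to 570.0, KRT18 562 to 615 and CD44 38.4 to 44.1 FPKM. After the data had been seen, the spread counts were recomputed in the same way. The 54 genes of wide CV came to 28 without Con 1 and 77 without Con 2, and the median CV of the hypoxia and glycolysis list (39.6%) to between 23.1% and 56.6%. Fewer libraries change an SD by themselves, and the cause of these shifts was not tested otherwise. Median of ratios factors were 0.995 to 1.003, and genes under about 1 FPKM are limited by depth. No paired analysis was possible because no groups were compared and no result comes from a test.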
